A study of Mus musculus with 24 samples.

Results

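A set of 47 chemokine and cytokine genes was followed through all 8 groups of an H19 knockdown experiment in cultured mouse fat precursor cells. The members were the genes named Ccl or Cxcl with a number, Cx3cl1, and the cytokine genes Il6, Il33, Il1b, Il1rn, Il15, Il18, Lif, Clcf1, Ctf1, Csf1, Csf2, Csf3, Tnf and Osm. The rule used gene symbols and no measured value, though it was set with earlier results of these data known. It matched 47 of the 49452 genes in the expression table: 19 CC chemokines, 13 CXC chemokines, 1 CX3C chemokine and 14 cytokines. The table lists 28757 genes without a symbol, which could not be matched.

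The cells were cultures of the stromal vascular fraction (SVF), the mixed non-adipocyte cells left after fat tissue is digested, from male C57BL/6 mice aged 6 to 8 weeks. They came from interscapular brown adipose tissue (BAT), which the methods say was pooled where needed, or from perigonadal visceral white adipose tissue (vWAT, WAT or epididymal in the labels). H19, an imprinted long noncoding RNA, was knocked down by nucleofection of 1 siRNA (siH19, named siH19_3 in the sample titles), and controls received a non-targeting siRNA (siCtrl, named siKO in the titles). RNA was sequenced at day 0 (d0) and at day 3 of adipocyte differentiation (d3), with 3 libraries in each of the 8 groups of depot, siRNA and day. No group carried an engineered allele. The induction medium held insulin, dexamethasone and rosiglitazone, with indomethacin and triiodothyronine for BAT and IBMX for vWAT. Per the methods it was later replaced by a differentiation medium, growth medium with rosiglitazone for vWAT or triiodothyronine for BAT. The labels name IBMX for both depots and the methods for white fat alone, so whether BAT cells received it is not settled. Depot and medium therefore cannot be told apart at d3, and neither can day and medium. The labels do not say whether the libraries of a group came from separate animals or cultures, so p-values measure the spread between these libraries, which may be technical.

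Levels are FPKM (fragments counted relative to transcript length and to all mapped fragments), so that levels can be set side by side between genes. H19 itself was at 130 ± 27.1 FPKM in BAT siCtrl d0 cells (mean ± SD, n = 3) and at 11.7 ± 0.528 in vWAT siCtrl d0 cells, and the siH19 groups held 3.35% to 15.3% of the matching siCtrl mean. Relative depth, read from the smallest steps between low values, was 0.825 to 0.983 times the median library in BAT and 1.02 to 1.17 times in vWAT. The labelled cell type was checked against marker lists. All 7 precursor markers were at FPKM 1 or more in every d0 library, and so were all 7 adipocyte markers. From d0 to d3 in siCtrl cells 7 of 7 adipocyte markers rose in both depots. The precursor markers summed to 1425 to 1531 FPKM at d0 and 463 to 499 FPKM at d3 in BAT siCtrl libraries. In vWAT siCtrl libraries they summed to 1294 to 1386 FPKM and 1447 to 1507 FPKM, so this list does not set d0 apart there. The cultures also held macrophage RNA, with 19 marker genes summing to 103 to 247 FPKM in BAT libraries and 458 to 895 FPKM in vWAT libraries. Lymphocyte markers summed to at most 2.08 FPKM and mast cell markers to at most 3.22 FPKM in any library. In 2 of the 3 vWAT siCtrl d0 libraries the neutrophil genes S100a8 and S100a9 stood at 77.6 to 184 FPKM, against 3.55 and 1.04 FPKM in the remaining one.

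Chemokines are small secreted proteins that draw leukocytes along a gradient by binding G protein-coupled receptors. CC chemokines such as Ccl2 and Ccl7 act mainly on monocytes through Ccr2, CXC chemokines with an ELR motif such as Cxcl1 and Cxcl5 act on neutrophils through Cxcr2, and homeostatic chemokines such as Cxcl12 and Cxcl13 place cells within tissues. In fat, stromal precursors are a known source of Ccl2, Csf1, Cxcl12 and Il33, and these products recruit, feed or tune resident macrophages and lymphocytes. Cytokines of the gp130 family (Il6, Lif, Clcf1, Ctf1, Osm) signal through JAK kinases and STAT3, and many members of the whole set are induced by NF-kB.

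Of the 47 members, 34 reached FPKM 1 in at least 1 library and 16 did so in all 24 libraries. Csf1, the growth factor that keeps macrophages alive, was by far the most abundant member, with a mean of 1049 FPKM over the 24 libraries and 30.7% to 68.3% of the summed FPKM of the set in every group. It was followed by Cxcl12 (178 FPKM), Ccl2 (153 FPKM), Ccl9 (106 FPKM), Ccl7 (83.6 FPKM), Il6 (76.0 FPKM), Cxcl14 (69.8 FPKM), Ccl6 (53.8 FPKM), Cxcl13 (39.8 FPKM) and Clcf1 (31.2 FPKM). This order is set mostly by the d0 libraries, where levels were higher: in vWAT at d3 Ccl9 (122 FPKM), Ccl6 (108 FPKM), Cxcl13 (80.2 FPKM) and Il33 (37.8 FPKM) stood above Ccl2 (28.4 FPKM), and Il6 was at 3.11 FPKM, as means of 6 libraries. The inflammatory cytokines Tnf and Il1b were nearly silent: Tnf reached at most 0.743 FPKM and Il1b at most 0.530 FPKM in any library. The other members below FPKM 1 throughout were Ccl28, Ccl20, Cxcl3, Ccl17, Osm, Ccl1, Cxcl17, Ccl22, Cxcl11, Cxcl15 and Ccl26, the last listed at 0 in all 24 libraries. The macrophage-type chemokines Ccl3, Ccl4 and Ccl5 were low, with maxima in vWAT d0 cells of 4.75, 4.57 and 6.71 FPKM. Il33 was listed at 0 in 1 vWAT siH19 d0 library and at 31.7 and 42.7 FPKM in the other two of its group, which may be a failed estimate, since 100 genes of the table with a median of 5 FPKM or more show a 0 in some library. The level of Ccl27a is uncertain because near-identical copies of this gene share reads.

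Many members lie beside each other in the genome: 26 of the 47 fall into 7 runs in which the next member starts within 200 kb (coordinates of GRCm38). The longest run, on chromosome 11 from 82035571 to 82305690, holds the 6 genes Ccl2, Ccl7, Ccl11, Ccl12, Ccl8 and Ccl1. A second on chromosome 11, from 83525778 to 83664683, holds Ccl5, Ccl9, Ccl6, Ccl3 and Ccl4, and a run on chromosome 5, from 90759360 to 90905938, holds Cxcl5, Cxcl3, Cxcl15, Cxcl1 and Cxcl2. Csf1, Cxcl12, Cxcl13, Cxcl14, Il6 and Clcf1 lie outside these runs.

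To show the regulatory sequence behind the genes whose levels changed with the knockdown, the 250 bases before the RefSeq transcription start (GRCm38.p6) are given for 7 of the 11 members called in a knockdown comparison below. RefSeq promoter entries matched 32 of the 47 members, with 38 start sites, and Ccl2, Ccl7, Cxcl5 and Clcf1 had no entry. Each sequence runs 5′ to 3′ on the gene's own strand and ends just before the start site. Capitals mark matches to 4 motifs searched by letters alone: the NF-kB (kB) motif, AP-1 (TGANTCA) and STAT (TTCNNNGAA), each on both strands, and TATAAA on the gene's strand. The windows are chr3:107760470-107760719 for Csf1 (minus strand), chr13:56296552-56296801 for Cxcl14 (minus), chr5:90890995-90891244 for Cxcl1 (plus), chr5:30012864-30013113 for Il6 (plus), chr6:117168285-117168534 for Cxcl12 (plus), chr11:83578637-83578886 for Ccl9 (minus) and chr5:95956689-95956938 for Cxcl13 (plus).
Csf1: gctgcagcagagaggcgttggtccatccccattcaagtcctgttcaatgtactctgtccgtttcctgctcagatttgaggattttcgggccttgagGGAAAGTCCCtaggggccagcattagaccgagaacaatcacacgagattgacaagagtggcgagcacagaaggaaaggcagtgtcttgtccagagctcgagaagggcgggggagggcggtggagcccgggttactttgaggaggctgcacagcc
Cxcl14: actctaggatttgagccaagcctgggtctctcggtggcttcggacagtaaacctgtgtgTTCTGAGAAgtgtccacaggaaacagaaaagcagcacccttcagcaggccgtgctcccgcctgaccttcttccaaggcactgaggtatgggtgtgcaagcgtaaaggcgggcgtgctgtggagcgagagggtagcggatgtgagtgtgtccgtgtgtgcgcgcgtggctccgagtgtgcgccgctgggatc
Cxcl1: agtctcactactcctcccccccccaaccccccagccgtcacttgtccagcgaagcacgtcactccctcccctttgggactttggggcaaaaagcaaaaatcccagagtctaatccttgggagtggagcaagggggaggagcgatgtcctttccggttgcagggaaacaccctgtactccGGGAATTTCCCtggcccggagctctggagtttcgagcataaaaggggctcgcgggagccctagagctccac
Il6: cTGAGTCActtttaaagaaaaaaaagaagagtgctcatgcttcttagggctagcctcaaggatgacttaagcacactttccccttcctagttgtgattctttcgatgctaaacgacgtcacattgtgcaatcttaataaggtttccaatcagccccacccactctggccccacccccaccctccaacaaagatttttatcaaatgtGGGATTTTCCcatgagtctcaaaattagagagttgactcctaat
Cxcl12: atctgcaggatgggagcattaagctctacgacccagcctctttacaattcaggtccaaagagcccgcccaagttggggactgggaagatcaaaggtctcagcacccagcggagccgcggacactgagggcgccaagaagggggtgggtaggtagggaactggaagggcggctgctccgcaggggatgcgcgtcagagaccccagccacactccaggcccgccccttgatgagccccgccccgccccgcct
Ccl9: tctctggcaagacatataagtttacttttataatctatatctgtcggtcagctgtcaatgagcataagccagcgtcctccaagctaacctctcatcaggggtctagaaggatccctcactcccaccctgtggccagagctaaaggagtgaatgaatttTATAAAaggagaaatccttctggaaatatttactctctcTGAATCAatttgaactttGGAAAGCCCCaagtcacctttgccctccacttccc
Cxcl13: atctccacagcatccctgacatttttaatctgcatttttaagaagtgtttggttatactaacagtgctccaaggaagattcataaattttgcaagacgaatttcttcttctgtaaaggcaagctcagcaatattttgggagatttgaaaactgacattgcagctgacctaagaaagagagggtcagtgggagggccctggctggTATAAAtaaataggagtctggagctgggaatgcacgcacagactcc

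The Csf1 window held 1 kB match, from 154 to 145 bases before the start. The Cxcl1 window held a pair of overlapping kB matches, one on each strand, between 71 and 61 bases before the start, and the Il6 window held an AP-1 match at 249 to 243 and a kB match at 44 to 35 bases before it. Ccl9 had a TATAAA 92 bases, an AP-1 match 53 bases and a kB match 35 bases before its start. Cxcl14 had 1 STAT match, Cxcl13 had 1 TATAAA at 46 bases, and no match to the 4 motifs lay in the Cxcl12 window. Over the 38 member windows the kB motif occurred in 10, AP-1 in 6, STAT in 2 and TATAAA in 13. Among all 32851 promoter windows of the same length the shares were 7.25%, 6.75%, 7.02% and 7.59%. Several member windows overlap one another, and a match of letters is no evidence of binding.

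The first question was what loss of H19 does to these genes, and the largest response was in BAT cells at d3. There 8 of the 22 members tested rose with siH19 and 0 fell, while 8.57% of all tested genes were called, 6.39% higher and 2.18% lower. Of all calls 74.6% were higher, and 60.5% after libraries were scaled to a common median, which left 8 members higher and 0 lower. A gene is called here at an adjusted p under 0.05 in limma with at least a 1.3-fold change on the log2(FPKM + 1) scale, on which low genes show smaller changes than their FPKM ratios. The 8 were the monocyte chemokines Ccl7 and Ccl2, the neutrophil chemokines Cxcl1 and Cxcl5, Cxcl14, Csf1 and the gp130 cytokines Clcf1 and Il6. At an unadjusted p under 0.05 the counts were 10 higher and 2 lower. No share of all tested genes is given at that threshold, here or below. Unadjusted counts of members and lists therefore cannot be set against a general share. The median log2 fold change was 0.31 over the members tested and 0.05 over all tested genes. Since the samples are bulk RNA, fewer cells of a type and less RNA per cell cannot be told apart here or below.

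Ccl7, a monocyte attractant that binds Ccr2 and other receptors, was at 8.01, 5.64 and 7.67 FPKM in the 3 siCtrl libraries and at 18.1, 19.2 and 16.8 FPKM in the 3 siH19 libraries of BAT at d3. Ccl2, the main Ccr2 ligand, was at 7.78, 4.78 and 6.06 FPKM against 12.8, 15.7 and 12.7 FPKM. For both genes the lowest siH19 value was above the highest siCtrl value, and the ratio of means was 2.54 for Ccl7 (log2 fold change 1.24, SE 0.13, adjusted p = 0.0031) and 2.21 for Ccl2 (log2 fold change 1.05, SE 0.16, adjusted p = 0.0093). In vWAT at d3 Ccl7 was at 14.8, 15.3 and 18.5 FPKM in siCtrl and 15.9, 17.3 and 16.4 FPKM in siH19 cells, and the groups overlapped. Ccl2 in the same vWAT groups was at 30.7, 31.1 and 25.1 FPKM and 27.0, 27.8 and 28.9 FPKM, again with overlap. The Ccl7 values of BAT siH19 cells thus overlapped the vWAT values, with the highest (19.2 FPKM) above all of them, while Ccl2 stayed below its vWAT values.

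**Figure D1:**
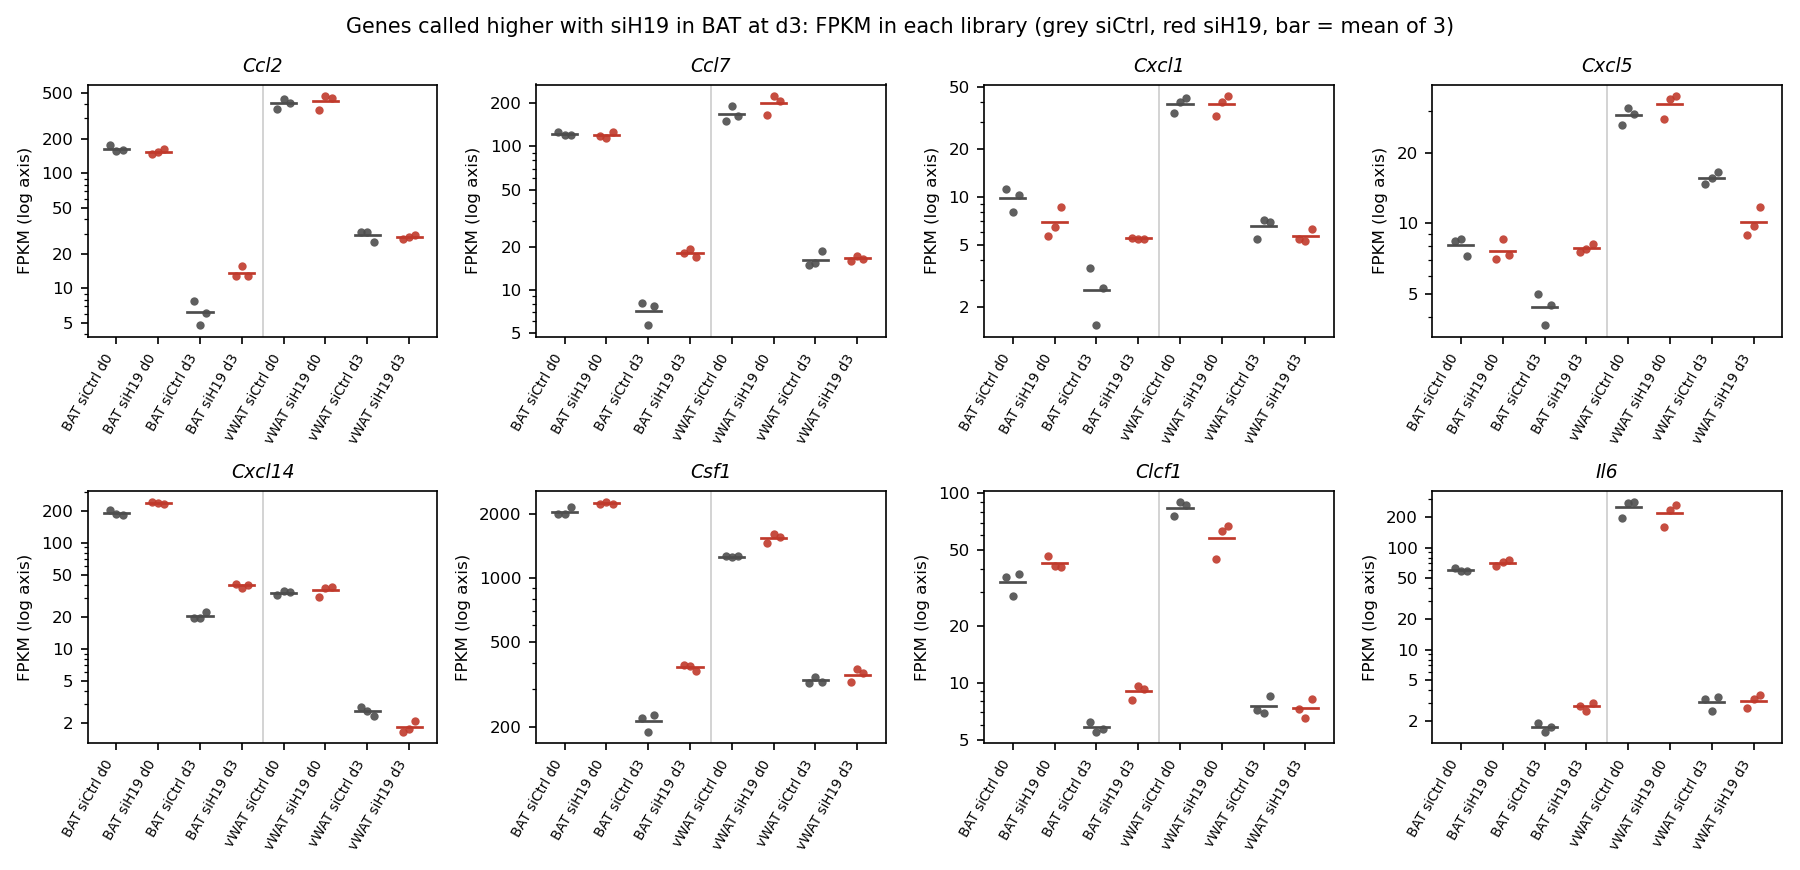
FPKM (log axis) of the 8 members that rose with siH19 in BAT cells at d3, in each of the 24 libraries, by depot, siRNA and day, with 1 point a library. At d3 in BAT the 3 siH19 points of each gene sit above the 3 siCtrl points, while in vWAT at d3 the siRNA groups lie close together for most of the genes, and all 8 genes are lower at d3 than at d0 in siCtrl cells of both depots.

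Csf1 was at 219, 189 and 228 FPKM in BAT siCtrl d3 libraries and at 389, 386 and 366 FPKM in siH19 libraries, a ratio of 1.79 (log2 fold change 0.84, SE 0.07, adjusted p = 0.0023). In absolute terms this was the largest gain of the set. The summed FPKM of all 47 members was 402, 360.3 and 402 in siCtrl and 602, 599 and 597 in siH19 libraries of BAT at d3. In vWAT at d3 Csf1 was at 323, 342 and 324 FPKM and 323, 374 and 357 FPKM, with no call (adjusted p = 0.67). Cxcl14, a chemokine of barrier and fat tissue whose receptor is not settled, rose from 19.5, 19.5 and 22.0 FPKM to 40.8, 37.5 and 40.1 FPKM in BAT (log2 fold change 0.92, SE 0.07, adjusted p = 0.0017). In vWAT it stood at 2.80, 2.61 and 2.30 FPKM in siCtrl and 1.65, 1.77 and 2.08 FPKM in siH19 cells, so the siH19 values lay below the siCtrl values there, without a call (adjusted p = 0.38).

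Of the Cxcr2 ligands, Cxcl5 was at 5.02, 3.68 and 4.50 FPKM in BAT siCtrl d3 libraries and 7.55, 7.81 and 8.20 FPKM in siH19 libraries (log2 fold change 0.72, SE 0.11, adjusted p = 0.0082). In vWAT at d3 the order was the other way round, 14.8, 15.6 and 16.6 FPKM in siCtrl and 8.91, 9.78 and 11.7 FPKM in siH19, without a call (log2 fold change -0.59, adjusted p = 0.25). Cxcl1 in BAT was at 3.53, 1.54 and 2.64 FPKM and 5.53, 5.43 and 5.45 FPKM (log2 fold change 0.90, SE 0.20, adjusted p = 0.03). The siH19 values of Cxcl1 were nearly equal to each other, whereas the siCtrl values spread more than 2-fold. The Cxcl1 call was lost when siCtrl replicate 3 (adjusted p = 0.07) or siH19 replicate 1, 2 or 3 was left out (0.08, 0.077 and 0.071). In vWAT at d3 Cxcl1 was at 5.41, 7.19 and 6.99 FPKM and 5.42, 5.24 and 6.30 FPKM. Cxcl2, another Cxcr2 ligand, was below the expression filter in BAT at d3, and the ELR chemokines Cxcl3 and Cxcl15 were below FPKM 1 in all libraries.

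Clcf1, a B-cell and neurotrophic cytokine of the gp130 family, was at 6.22, 5.50 and 5.70 FPKM in BAT siCtrl d3 libraries and 8.12, 9.64 and 9.28 FPKM in siH19 libraries (log2 fold change 0.56, SE 0.09, adjusted p = 0.01). Il6 was low at this stage, at 1.91, 1.57 and 1.75 FPKM and 2.82, 2.52 and 3.00 FPKM (log2 fold change 0.46, SE 0.10, adjusted p = 0.025). Both sets of 3 values were apart, but the Il6 call was lost when siCtrl replicate 2 (adjusted p = 0.091) or 3 (0.07) or siH19 replicate 1 (0.074) or 3 (0.071) was left out. In vWAT at d3 Clcf1 was at 7.17, 6.93 and 8.51 FPKM and 7.24, 6.54 and 8.17 FPKM, and Il6 at 3.29, 2.49 and 3.41 FPKM and 2.67, 3.26 and 3.56 FPKM, with overlap for both. Lif was below FPKM 1 in all d3 libraries and Osm in all libraries, so neither was tested at d3.

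Among the named members that were not called in BAT at d3, Cxcl12 was at 30.9, 31.1 and 27.4 FPKM in siCtrl and 25.0, 23.9 and 29.4 FPKM in siH19 libraries (log2 fold change -0.19, 95% interval -0.41 to 0.03). Ccl9 was at 20.5, 15.7 and 22.3 FPKM and 14.6, 27.6 and 19.5 FPKM (interval -0.51 to 0.60), and Cxcl13 at 14.0, 19.2 and 14.7 FPKM and 14.4, 12.9 and 13.9 FPKM (interval -0.48 to 0.10). For these 3 the siRNA groups overlapped, and the Ccl9 interval is wide enough to hold a change of the size called in other members. Ccl6, a chemokine of macrophages and other myeloid cells, was at 9.75, 12.5 and 10.8 FPKM in siCtrl and 7.44, 7.76 and 9.54 FPKM in siH19 libraries, all lower with siH19 but not called (adjusted p = 0.084).

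Markers of 2 cell types moved in the same libraries. Of the 14 macrophage markers tested in BAT at d3, 0 rose and 7 fell with siH19, the largest changes being C1qa (log2 fold change -1.06), Laptm5 (-0.84), C1qb (-0.81), C1qc (-0.79) and Lyz2 (-0.71). The 19 markers summed to 174 to 212 FPKM in siCtrl and 103 to 120.4 FPKM in siH19 libraries, so that sum was lower while the monocyte chemokines were higher. Of the 5 precursor markers tested, 4 rose, Ly6a (0.85), Pi16 (0.72), Thy1 (0.45) and Pdgfra (0.42), and the 7 on the list summed to 463 to 499 FPKM in siCtrl and 702 to 784 FPKM in siH19 libraries. Adipocyte markers showed 0 calls of 7 by limma in this comparison, with 6 lower at an unadjusted p under 0.05. The part of these cell types in the chemokine changes was not tested.

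**Figure D2:**
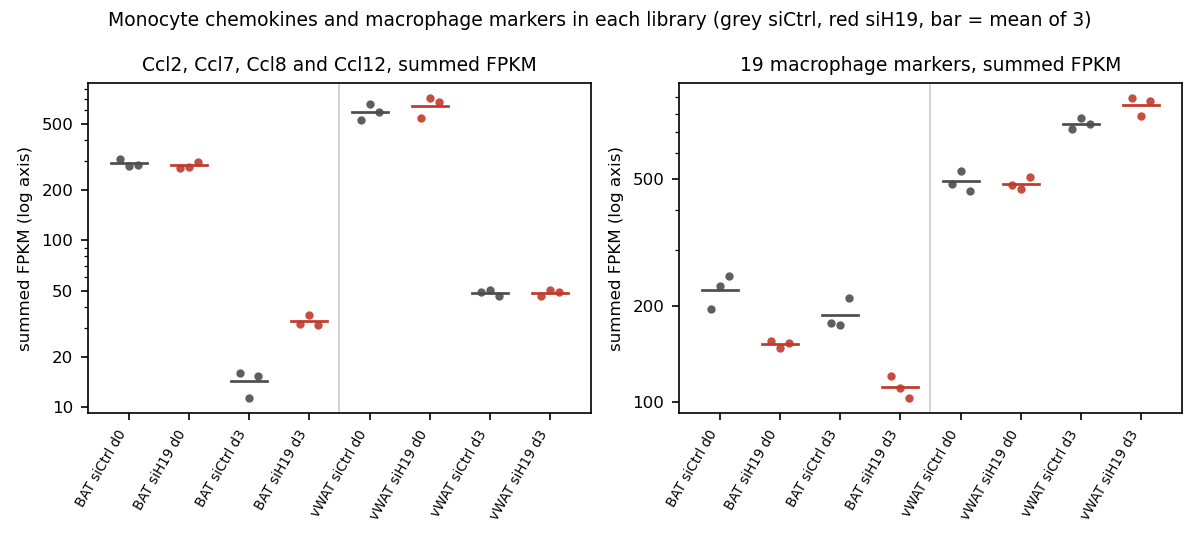
Summed FPKM in each of the 24 libraries of the 4 monocyte chemokines Ccl2, Ccl7, Ccl8 and Ccl12 and of 19 macrophage marker genes, by group, with 1 point a library. In BAT at d3 the siH19 libraries are higher than the siCtrl libraries in the chemokine sum and lower in the macrophage sum, while in vWAT from d0 to d3 the chemokine sum drops and the macrophage sum grows.

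**Figure D3:**
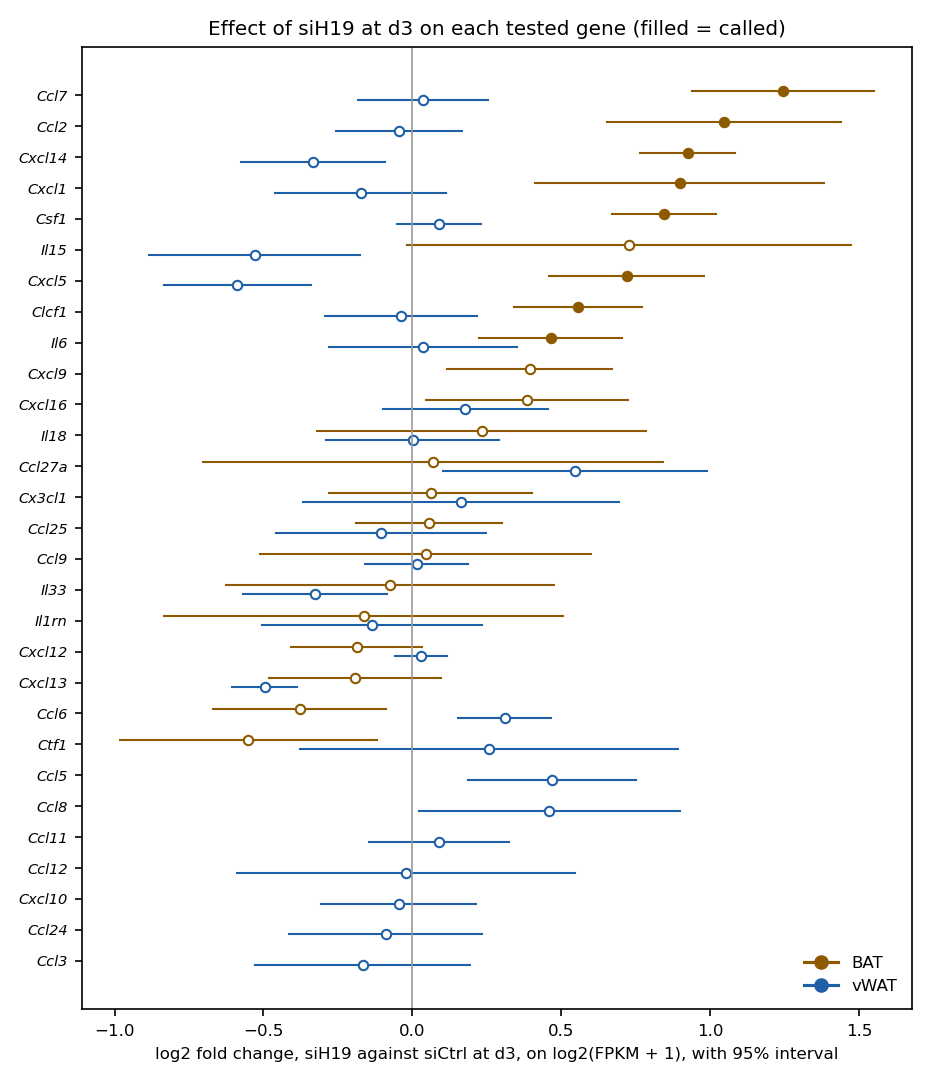
log2 fold change, siH19 against siCtrl, at d3 in BAT and in vWAT, with 95% intervals, for the members tested, where filled points are called. The 8 called points are all in BAT and to the right of 0, and no vWAT point is called.

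The response to siH19 was also compared between depots and days by interaction terms, called at an adjusted p under 0.05. At d3 it differed between BAT and vWAT for 8 of the 29 members tested, against 10.5% of all tested genes. Of all genes called 66.6% were more positive in BAT, and 45.6% after scaling, with 7 members positive and 1 negative under both. For Ccl2, Ccl7, Cxcl1, Cxcl5, Cxcl14, Csf1 and Clcf1 the response was more positive in BAT, and for Ccl6 it was more negative in BAT. Within BAT it differed between d3 and d0 for 9 of 26 members, all more positive at d3, against 9.06% of all tested genes. Of all genes called 86.0% were more positive at d3, and 61.1% after scaling, which left 7 members positive and 0 negative. These 9 were Ccl2, Ccl7, Cxcl1, Cxcl5, Cxcl9, Cxcl12, Cxcl14, Csf1 and Il15, and scaling lost Cxcl9 (adjusted p = 0.062) and Il15 (0.073). Calls among them that hang on 1 library are named with the values of these differences after the report.

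At d0 in BAT, before differentiation, a different pair of members responded. Of 25 members tested 0 rose and 2 fell with siH19, Cxcl12 and Ccl9, where 1.94% of all tested genes were called. Of all calls 31.8% were higher, and 41.0% after scaling. At an unadjusted p under 0.05, for which no share of all genes is given, 6 members were higher and 8 lower. Cxcl12, which holds and recruits Cxcr4-bearing cells, was at 342, 326 and 350.3 FPKM in siCtrl and 161, 189.9 and 184 FPKM in siH19 libraries, 52.5% of the siCtrl mean (log2 fold change -0.93, SE 0.07, adjusted p = 0.0076). Ccl9, a Ccr1 ligand found in rodents, was at 173, 188 and 200.5 FPKM and 89.5, 124 and 118 FPKM (log2 fold change -0.76, SE 0.13, adjusted p = 0.036). In both genes all siH19 values lay below all siCtrl values. The Cxcl12 call was lost without siCtrl replicate 3 (adjusted p = 0.058), and the Ccl9 call was lost in 5 of 6 fits that left out 1 library (adjusted p = 0.06 to 0.12), being kept without siH19 replicate 1.

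Other members of the named group at d0 in BAT changed less. Ccl6 was at 10.2, 15.6 and 15.1 FPKM in siCtrl and 6.46, 7.88 and 7.54 FPKM in siH19 libraries, without overlap and just outside the threshold (adjusted p = 0.057). Cxcl14 was at 202, 187 and 182 FPKM and 239, 234 and 233 FPKM, significant (adjusted p = 0.029) but under the minimum fold change. Ccl2 was at 177, 155 and 159 FPKM and 147, 154 and 162 FPKM, and Ccl7 at 126, 119.6 and 120.1 FPKM and 119, 114 and 127 FPKM, so these 2 chemokines overlapped between the siRNA groups at d0. Csf1 was at 1998, 2015 and 2156 FPKM and 2239, 2276 and 2241 FPKM, Il6 at 63.8, 58.7 and 58.8 FPKM and 65.3, 72.0 and 75.5 FPKM, and Clcf1 at 36.3, 28.8 and 37.6 FPKM and 46.6, 41.2 and 40.7 FPKM, all 3 without overlap and without a call (adjusted p = 0.11, 0.13 and 0.18). Cxcl1 was at 11.3, 8.02 and 10.3 FPKM in siCtrl and 5.70, 6.45 and 8.67 FPKM in siH19 libraries, and Cxcl5 at 8.43, 8.61 and 7.25 FPKM and 7.08, 8.58 and 7.30 FPKM. Neither was called, and the groups overlapped.

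Beside the fall of Cxcl12 and Ccl9, 4 of 16 macrophage markers tested fell in BAT at d0 and 0 rose, C1qa (-1.03), C1qb (-0.90), Lyz2 (-0.63) and Tyrobp (-0.60), and the 19 summed to 196 to 247 FPKM in siCtrl and 147 to 155 FPKM in siH19 libraries. Of 7 adipocyte markers, 5 fell, Adipoq (-1.30), Lipe (-1.07), Plin1 (-0.91), Fabp4 (-0.89) and Pparg (-0.60), with sums of 3023 to 3292 FPKM and 1524 to 2045 FPKM. Precursor markers were not called, with 0 of 7 by limma and 1 higher at an unadjusted p under 0.05. The part of these cells in the result was not tested.

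In vWAT cells few members were called with siH19. At d0, 1 of 32 members fell with siH19 and 0 rose, where 1.53% of all tested genes were called, and at an unadjusted p under 0.05 there were 3 higher and 4 lower. Of all calls 21.5% were higher, and 32.3% after scaling. That member was Cxcl13, the B-cell attractant that binds Cxcr5, at 69.7, 76.9 and 71.8 FPKM in siCtrl and 50.7, 55.0 and 49.7 FPKM in siH19 libraries without overlap (log2 fold change -0.48, SE 0.06, adjusted p = 0.016). Its call was lost in 5 of 6 fits that left out 1 library (adjusted p = 0.052 to 0.077), being kept without siH19 replicate 2. Csf1 was at 1274, 1255 and 1266 FPKM and 1459.5, 1611 and 1566 FPKM, all siH19 values higher, with an adjusted p of 0.04 but a change under 1.3-fold. Clcf1 was at 76.1, 89.6 and 86.99 FPKM and 45.2, 63.1 and 67.1 FPKM, lower in all siH19 libraries without a call (adjusted p = 0.14). Of 7 adipocyte markers 5 fell in the same comparison, with sums of 4044 to 4049.5 FPKM and 2359 to 2667 FPKM, and macrophage markers showed 0 calls of 19 by limma, with 1 higher and 3 lower at an unadjusted p under 0.05. The neutrophil list summed to 7.61, 405 and 174 FPKM in the 3 siCtrl libraries and 3.00 to 6.14 FPKM in siH19 libraries, with 2 genes lower at an unadjusted p under 0.05. The Cxcl13 call was lost without either high library, siCtrl replicate 2 (adjusted p = 0.077) or 3 (0.067). The part of these cells was not tested.

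At d3 in vWAT 0 of 28 members were called by limma, where 0.0305% of all tested genes were called. At an unadjusted p under 0.05 there were 4 higher and 5 lower. Cxcl13 was again lower in all siH19 libraries, at 89.6, 93.7 and 98.8 FPKM in siCtrl and 67.5, 66.3 and 65.3 FPKM in siH19 (log2 fold change -0.50, adjusted p = 0.055). Cxcl12 was at 241, 236 and 243 FPKM and 255, 237 and 243 FPKM (95% interval of the log2 fold change -0.06 to 0.12). Ccl9 was at 112, 120.5 and 131 FPKM and 122, 114 and 131 FPKM (interval -0.16 to 0.19), and Ccl6 at 92.7, 98.9 and 98.3 FPKM and 125, 109 and 126 FPKM (interval 0.15 to 0.47). For Cxcl12 and Ccl9 the siRNA groups overlapped, while the siH19 values of Ccl6 were all higher than the siCtrl values without a call (adjusted p = 0.31). The 19 macrophage markers summed to 715 to 773 FPKM in siCtrl and 787 to 895 FPKM in siH19 libraries. Of these markers 4 were higher and 1 lower at an unadjusted p under 0.05. Their part in the Ccl6 values was not tested.

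The second question was how the set changes as precursors become adipocytes. From d0 to d3 most members fell in siCtrl cells of both depots. In BAT 21 of 26 tested members fell and 2 rose, where 65.2% of all tested genes were called, 29.9% higher and 35.3% lower. In vWAT 23 of 32 fell and 1 rose, where 50.3% of all tested genes were called, 26.3% higher and 23.9% lower. The median log2 fold change of members was -1.69 in BAT and -1.40 in vWAT, beside -0.10 and 0.01 over all tested genes. Of the members that fell, 3 in BAT (Ccl11, Lif and Ccl24) and 5 in vWAT (Lif, Ccl5, Ccl4, Cxcl2 and Csf2) passed the expression filter through the d0 libraries alone, so they could be tested only because they were high there. The summed FPKM of the 47 members was 3265, 3233 and 3426 in BAT d0 siCtrl libraries against the d3 values above, and in vWAT it was 2884, 3136 and 3042 at d0 and 1045, 1083 and 1092 at d3.

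In BAT the 5 largest falls on the log2(FPKM + 1) scale were those of Ccl2, Il6, Ccl7, Cxcl12 and Lif. Ccl2 went from 177, 155 and 159 FPKM at d0 to 7.78, 4.78 and 6.06 FPKM at d3 (log2 fold change -4.53, SE 0.15, adjusted p = 4.2e-07), and Il6 from 63.8, 58.7 and 58.8 FPKM to 1.91, 1.57 and 1.75 FPKM, 34.8-fold lower by the ratio of means (log2 fold change -4.49, SE 0.07, adjusted p = 3.6e-08). Ccl7 fell by a log2 fold change of -3.94 (adjusted p = 2.7e-07) and Cxcl12 by -3.47 (adjusted p = 4.2e-08). Lif, which keeps several stem and precursor cell types undifferentiated, was at 12.03, 11.5 and 14.6 FPKM at d0 and 0.176, 0.629 and 0.104 FPKM at d3 (log2 fold change -3.41, SE 0.17, adjusted p = 3.1e-06). None of these 5 had overlapping d0 and d3 values. The same contrast in siH19 cells of BAT gave -3.40 for Ccl2, -4.25 for Il6, -2.67 for Ccl7, -2.72 for Cxcl12 and -3.80 for Lif, all called.

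The 2 members that rose in BAT were Cxcl13 and the gp130 cytokine Ctf1. Cxcl13 was at 1.52, 2.00 and 2.06 FPKM at d0 and 14.0, 19.2 and 14.7 FPKM at d3 (log2 fold change 2.56, SE 0.14, adjusted p = 4.7e-06), and in siH19 cells at 0.714, 1.69 and 2.24 FPKM and 14.4, 12.9 and 13.9 FPKM (log2 fold change 2.58, SE 0.23, adjusted p = 5.3e-05). Ctf1 was at 0.627, 0.647 and 1.197 FPKM and 4.94, 3.45 and 3.38 FPKM (log2 fold change 1.43, SE 0.17, adjusted p = 0.00027), with a log2 fold change of 0.93 in siH19 cells (adjusted p = 0.0053). Both genes stood out in BAT against the general fall of the set.

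In vWAT the 5 largest falls on the log2(FPKM + 1) scale were those of Il6, Lif, Ccl2, Clcf1 and Ccl7. Il6 went from 194, 276 and 277 FPKM at d0 to 3.29, 2.49 and 3.41 FPKM at d3, 81.3-fold lower (log2 fold change -5.93, SE 0.16, adjusted p = 5.9e-07), and Lif from 18.7, 25.3 and 26.0 FPKM to 0.342, 0.227 and 0.536 FPKM (log2 fold change -4.15, SE 0.15, adjusted p = 1.7e-06). Ccl2 was at 359, 444 and 413 FPKM at d0, Ccl7 at 151, 192 and 164 FPKM and Clcf1 at 76.1, 89.6 and 86.99 FPKM, and their log2 fold changes to d3 were -3.76, -3.31 and -3.32 (adjusted p = 7.1e-07, 1.5e-06 and 7e-07). In siH19 cells of vWAT the values were -5.69 for Il6, -4.13 for Lif, -3.88 for Ccl2, -2.82 for Clcf1 and -3.50 for Ccl7, all called. The d0 libraries high in S100a8 and S100a9 were vWAT siCtrl replicates 2 and 3, and these also held the higher Il6, Ccl2, Lif and Cxcl10 values of the group. Replicate 1 was also lowest in these 4 genes in the vWAT siH19 d0 libraries, where the neutrophil list summed to 3.00 to 6.14 FPKM. Without vWAT siCtrl d0 replicate 2 the vWAT comparison gave 20 members called and without replicate 3 it gave 18, against 24 with all libraries.

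Cxcl12 was the 1 member that rose in vWAT siCtrl cells, from 186, 169 and 178 FPKM at d0 to 241, 236 and 243 FPKM at d3 (log2 fold change 0.43, SE 0.04, adjusted p = 0.00013). In siH19 cells it was at 177, 183 and 202 FPKM and 255, 237 and 243 FPKM (log2 fold change 0.39, SE 0.06, adjusted p = 0.0013), close to the minimum fold change and under it in 3 of 6 fits that left out 1 library (vWAT siH19 d0 replicate 1 or 2 or d3 replicate 1, log2 fold change 0.35 to 0.37) and after scaling (0.36). In siH19 cells the set as a whole gave 2 members higher and 15 lower of 26 tested in BAT, where 60.6% of all tested genes were called. In vWAT it gave 2 higher and 21 lower of 31, where 52.7% were called, and Ccl6 was the second member to rise (log2 fold change 0.55, SE 0.07, adjusted p = 0.00058). Of the siH19 falls, 2 in BAT (Lif and Ccl24) and 3 in vWAT (Lif, Ccl4 and Cxcl2) passed the filter through the d0 libraries alone.

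**Figure D4:**
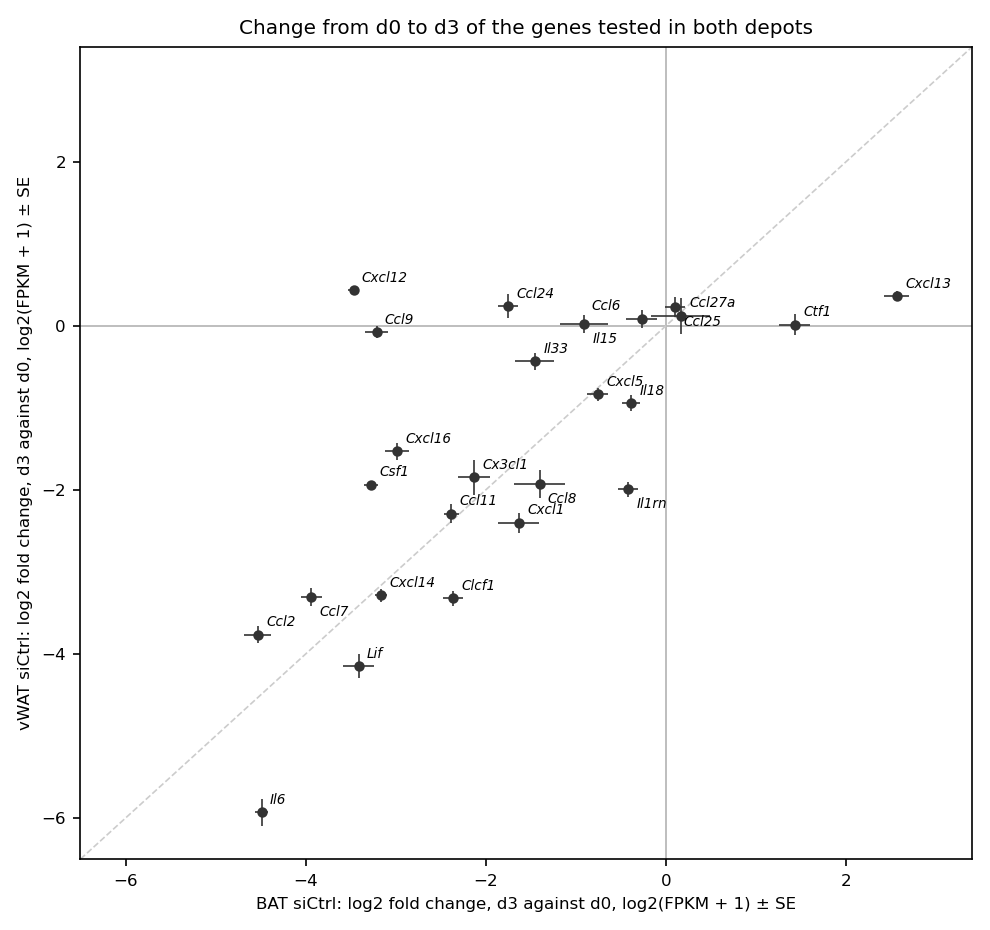
log2 fold change from d0 to d3 in siCtrl cells, BAT on one axis and vWAT on the other, with standard errors, for the members tested in both, and a dashed line of equal change. Most members sit in the lower left, below 0 on both axes, while Cxcl12 and Ccl9 are strongly negative in BAT and near 0 or above in vWAT, and Cxcl13 and Ctf1 are positive in BAT.

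Whether the change over time differed between depots was tested by an interaction in the 12 siCtrl libraries, which called 21 of 33 members, 12 more positive and 9 more negative in BAT, against 53.0% of all tested genes. Without vWAT siCtrl d0 replicate 2 or 3 it called 18 and 17. Members near 0 in BAT at d0 could fall little there on the log2(FPKM + 1) scale. This limits what a more positive difference in BAT shows for them. As means of 6 BAT d0 libraries, Cxcl10 was at 0.878, Ccl4 at 0.678 and Csf2 at 0.0264 FPKM. The 2 largest differences were in Cxcl12 and Ccl9, which fell in BAT, while in vWAT Cxcl12 rose and Ccl9 was not called. Ccl9 was at 127, 137 and 119 FPKM at d0 and 112, 120.5 and 131 FPKM at d3 in vWAT siCtrl cells (95% interval of the log2 fold change -0.25 to 0.10), but in BAT its log2 fold change was -3.21 (adjusted p = 1e-06). Macrophage markers summed to 458 to 530.5 FPKM at d0 and 715 to 773 FPKM at d3 in vWAT siCtrl libraries, with 6 markers higher and 6 lower of 19, and mesothelial markers summed to 198 to 234 FPKM and 31.5 to 48.6 FPKM, with 7 of 7 lower. In BAT 10 of 16 macrophage markers fell and 2 rose, with sums of 196 to 247 FPKM and 174 to 212 FPKM. Of all tested genes 65.2% were called from d0 to d3 in BAT siCtrl cells and 50.3% in vWAT siCtrl cells. In the interaction 7 of 7 adipocyte markers were more positive and 7 of 7 precursor markers more negative in BAT at an unadjusted p under 0.05. The part of all these cells in the changes over time was not tested.

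The third question was how the depots differ. BAT and vWAT libraries come from different cultures and carry different sample codes, 1 prefix for each depot, so depot and handling cannot be told apart. At d0 in siCtrl cells 21 of 33 members were lower in BAT and 6 were higher, where 31.2% of all tested genes were called, 10.2% higher and 21.0% lower. At d3 18 of 28 were lower and 3 higher, where 48.6% were called, 16.5% higher and 32.1% lower. In siH19 cells the counts were 18 lower and 4 higher of 32 at d0 (30.4% of all tested genes called) and 13 lower and 3 higher of 28 at d3 (41.2%). The median log2 fold change of members at d0 in siCtrl cells was -1.28, beside -0.13 over all tested genes, and at d3 it was -1.10 beside -0.16. Scaling all genes to a common level moved the median of all genes by 0.11 at d0 and by 0.12 at d3 in siCtrl cells and by 0.10 at d0 in siH19 cells. The share of calls that were higher in BAT went from 32.8% to 48.0%, from 33.9% to 45.3% and from 32.3% to 45.7% in these comparisons, and the siCtrl members then counted 20 lower and 6 higher at d0 and 18 lower and 3 higher at d3. Of the siCtrl calls, 3 at d0 (Cxcl9, Ccl5 and Csf2) and 6 at d3 (Ccl11, Cxcl10, Ccl12, Ccl24, Ccl3 and Cxcl9) passed the filter through 1 depot alone, and of the siH19 calls 7 at d0 (Cxcl10, Ccl12, Ccl3, Cxcl9, Ccl5, Ccl4 and Cxcl2) and 4 at d3 (Cxcl10, Ccl12, Ccl24 and Cxcl9) did so. Without vWAT siCtrl d0 replicate 2 or 3, the libraries high in S100a8 and S100a9, 24 and 26 members were called at d0 in place of 27.

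The 5 members lowest in BAT at d0 relative to vWAT on the log2(FPKM + 1) scale were Cxcl13, Il33, Cxcl10, Ccl6 and Ccl11. Cxcl13 was at 1.52, 2.00 and 2.06 FPKM in BAT and 69.7, 76.9 and 71.8 FPKM in vWAT, 39.2-fold higher in vWAT by the ratio of means (log2 fold change -4.69, SE 0.09, adjusted p = 4.9e-07). Il33, an alarmin of stromal cells that supports regulatory T cells and innate lymphoid cells in visceral fat, was at 5.17, 7.63 and 6.86 FPKM in BAT and 51.7, 58.1 and 62.2 FPKM in vWAT (log2 fold change -2.96, SE 0.14, adjusted p = 1.2e-05). Ccl6 was at 10.2, 15.6 and 15.1 FPKM and 93.0, 105 and 77.0 FPKM (log2 fold change -2.67, SE 0.18, adjusted p = 5.4e-05). Depot values did not overlap for any of these 3, and the same held for the interferon-induced Cxcr3 ligand Cxcl10 (log2 fold change -2.70, SE 0.39, adjusted p = 0.0016) and the eosinophil attractant Ccl11 (log2 fold change -2.08, SE 0.09, adjusted p = 9.6e-06). In siH19 cells the log2 fold changes were -4.42, -3.32, -3.44 and -1.69 for Cxcl13, Ccl6, Cxcl10 and Ccl11. For Il33 in siH19 cells it was -1.2 without a call, and -2.94 (adjusted p = 0.0017) when the vWAT siH19 d0 replicate 3 that lists it at 0 was left out.

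The 5 members highest in BAT at d0 relative to vWAT on the log2(FPKM + 1) scale were Cxcl14, Cxcl9, Cxcl12, Csf1 and Ccl9. Cxcl14 was at 202, 187 and 182 FPKM in BAT and 31.9, 35.1 and 34.4 FPKM in vWAT, a ratio of 5.64 (log2 fold change 2.46, SE 0.06, adjusted p = 7.9e-07). Cxcl12 was at 342, 326 and 350.3 FPKM in BAT and 186, 169 and 178 FPKM in vWAT (log2 fold change 0.93, SE 0.05, adjusted p = 1.6e-05). With siH19 the depot values overlapped: Cxcl12 was at 161, 189.9 and 184 FPKM in BAT siH19 cells and 177, 183 and 202 FPKM in vWAT siH19 cells (log2 fold change -0.07, SE 0.08, adjusted p = 0.5). Ccl9 was higher in BAT in siCtrl cells (log2 fold change 0.55, SE 0.07, adjusted p = 0.0012), while in siH19 cells it was at 89.5, 124 and 118 FPKM in BAT and 136, 125 and 150.1 FPKM in vWAT, all BAT values lower without a call (log2 fold change -0.32, SE 0.13, adjusted p = 0.092). Csf1 was higher in BAT with either siRNA (0.70 and 0.54), as was Cxcl9 (1.56 and 1.04), a Cxcr3 ligand at 2.74, 3.38 and 3.98 FPKM in BAT and under FPKM 1 in vWAT. Neighbours on chromosome 11 went both ways: in the run of Ccl5, Ccl9, Ccl6, Ccl3 and Ccl4, Ccl9 was higher in BAT while the other 4 were lower.

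**Figure D5:**
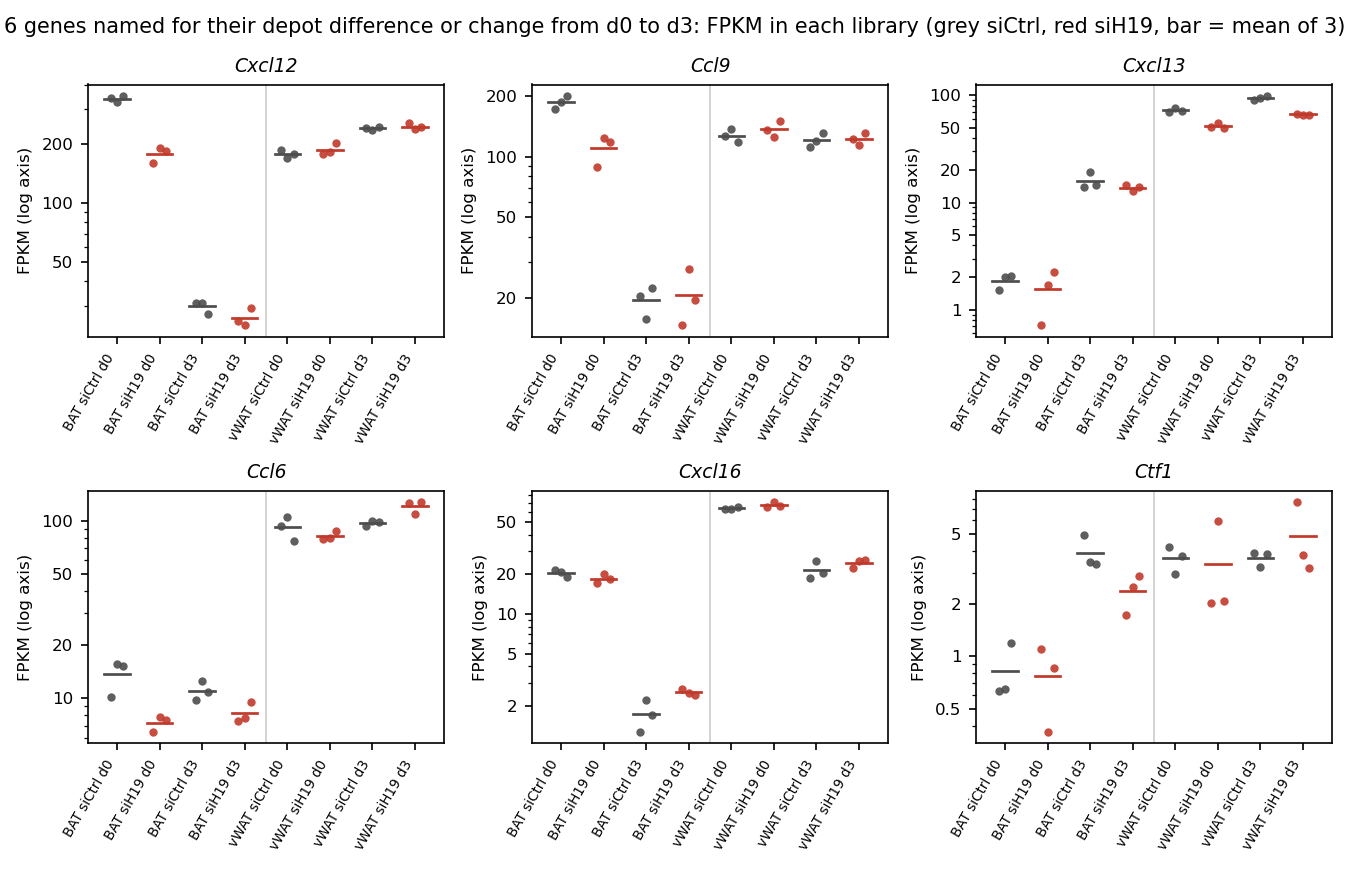
FPKM (log axis) of Cxcl12, Ccl9, Cxcl13, Ccl6, Cxcl16 and Ctf1 in each of the 24 libraries, by depot, siRNA and day, with 1 point a library. Cxcl12 and Ccl9 are highest in BAT siCtrl d0 cells and drop by d3 in BAT while staying high in vWAT, and Cxcl13, Ccl6 and Cxcl16 are higher in vWAT at both days.

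At d3 the 5 members lowest in BAT relative to vWAT on the log2(FPKM + 1) scale were Il33, Cxcl16, Ccl6, Cxcl12 and Ccl9. By the ratio of means Ccl11 was 14.6-fold higher in vWAT siCtrl cells, more than Cxcl16 (12.4-fold). Il33 was at 2.49, 1.82 and 1.07 FPKM in BAT and 41.6, 37.8 and 47.3 FPKM in vWAT (log2 fold change -3.98, SE 0.19, adjusted p = 5.9e-06). Cxcl16, a membrane-anchored ligand of Cxcr6, was at 1.27, 2.22 and 1.72 FPKM and 18.7, 25.3 and 20.7 FPKM (log2 fold change -3.05, SE 0.16, adjusted p = 8.3e-06). Cxcl12 and Ccl9, which were higher in BAT at d0, were 8.05-fold and 6.22-fold higher in vWAT at d3 by the ratio of means (log2 fold change -2.97, SE 0.06, adjusted p = 2.2e-07 and log2 fold change -2.59, SE 0.13, adjusted p = 6.4e-06), so their order between depots turned round during differentiation. Ccl6 was at 11.01 FPKM in BAT and 96.6 FPKM in vWAT on average (log2 fold change -3.03, adjusted p = 8.8e-07). In siH19 cells the values were -3.73 for Il33, -2.84 for Cxcl16, -3.72 for Ccl6, -3.19 for Cxcl12 and -2.56 for Ccl9, all called.

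The 3 members higher in BAT at d3 were Cxcl14, Il1rn and Cxcl9. Cxcl14 was at 19.5, 19.5 and 22.0 FPKM in BAT and 2.80, 2.61 and 2.30 FPKM in vWAT (log2 fold change 2.58, SE 0.09, adjusted p = 1.5e-06), and the ratio of means grew from 7.92 in siCtrl to 21.6 in siH19 cells. Il1rn, the secreted antagonist of the interleukin 1 receptor, was at 25.6, 22.6 and 20.9 FPKM and 4.22, 5.01 and 5.42 FPKM (log2 fold change 2.03, SE 0.11, adjusted p = 8.8e-06), and in siH19 cells at 23.4, 12.5 and 28.9 FPKM and 3.61, 4.02 and 5.58 FPKM. Its BAT siH19 values spread widely but stayed above all vWAT values. Cxcl9 had a log2 fold change of 1.34 in siCtrl and 1.47 in siH19 cells.

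With siH19 several of the depot differences at d3 were no longer called. For Csf1 the log2 fold change between depots was -0.64 in siCtrl cells (adjusted p = 0.00029) and 0.12 in siH19 cells (adjusted p = 0.14), and for Ccl7 it was -1.09 (adjusted p = 0.00057) and 0.12 (adjusted p = 0.19). Cxcl1 went from -1.11 to -0.04 and Cxcl5 from -1.63 to -0.32. These are the same libraries and the same differences as the depot by siRNA interaction at d3, seen from the other side. In the depot comparisons macrophage markers moved with most of the members: 17 of 19 were lower in BAT at d0 in siCtrl cells and 18 of 18 at d3. Mesothelial markers summed to 4.86 to 5.94 FPKM in BAT and 198 to 234 FPKM in vWAT at d0, and the neutrophil genes S100a8 (-3.87) and S100a9 (-5.00) were lower in BAT at d0. At d3 in siCtrl cells 7 of 7 adipocyte markers were higher in BAT at an unadjusted p under 0.05. Of 7 precursor markers 1 was higher and 6 were lower. Precursor sums were 463 to 499 FPKM in BAT and 1447 to 1507 FPKM in vWAT. Adipocyte sums were 37697 to 39412 and 19201 to 20180 FPKM. At d0 0 adipocyte markers were higher and 7 lower, and 2 precursor markers were higher and 5 lower. The part of all these cells in the depot differences was not tested.

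The receptors of these ligands were measured in the same libraries. Of 21 chemokine receptors at most 7 passed the expression filter in any comparison, and 0 were called by limma in the 4 siH19 comparisons, with 0 in BAT at d0, 0 in BAT at d3, 3 in vWAT at d0 and 2 in vWAT at d3 at an unadjusted p under 0.05. During differentiation in BAT siCtrl cells Cxcr4, the receptor of Cxcl12 (log2 fold change -1.98, SE 0.09, adjusted p = 1.5e-06) and Ackr3 (-0.58) fell, and the scavenging receptor Ackr4 rose (log2 fold change 2.35, SE 0.08, adjusted p = 5.9e-07). Ackr3, which clears Cxcl12, was lower in BAT than in vWAT at d0 (log2 fold change -1.55, SE 0.11, adjusted p = 7.8e-05) and at d3 (log2 fold change -2.69, SE 0.15, adjusted p = 1e-05). The Ccl2 and Ccl7 receptor Ccr2 and the Cxcl1 and Cxcl5 receptor Cxcr2 were near 0, with maxima of 0.446 and 0.129 FPKM in any library.

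Of 21 cytokine receptors 3 of 13 tested rose with siH19 in BAT at d3 and 0 fell, where 8.57% of all tested genes were called, 6.39% higher. The 3 were Osmr, which pairs with gp130 (log2 fold change 0.68, SE 0.10, adjusted p = 0.0066), the TNF receptor Tnfrsf1b (log2 fold change 0.53, SE 0.08, adjusted p = 0.0081) and Il1rap, the shared chain of interleukin 1 and Il33 receptors (log2 fold change 0.50, SE 0.08, adjusted p = 0.01). The other siH19 comparisons gave 0 calls by limma in this list, with 2 in BAT at d0, 4 in vWAT at d0 and 1 in vWAT at d3 at an unadjusted p under 0.05. From d0 to d3 in BAT siCtrl cells 13 of 15 fell and 1 rose, led by the Il33 receptor Il1rl1 (log2 fold change -6.70, SE 0.15, adjusted p = 8.8e-08). In vWAT 10 of 17 fell and 2 rose, again led by Il1rl1 (log2 fold change -5.85, SE 0.11, adjusted p = 1.8e-07). Of all tested genes 65.2% were called in BAT, 35.3% lower, and 50.3% in vWAT, 23.9% lower. Il6st, the gp130 chain itself, fell in BAT (-0.69) and rose in vWAT (1.08).

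Among 22 NF-kB targets and feedback genes 1 of 19 rose with siH19 in BAT at d3, the adhesion molecule Icam1 (log2 fold change 0.56, SE 0.08, adjusted p = 0.0071). At d0 1 of 21 rose, Ptgs2 (log2 fold change 0.83, SE 0.08, adjusted p = 0.018), and 0 fell on either day. Of all tested genes 8.57% were called in BAT at d3, 6.39% higher, so 1 of 19 is no more than the general share. At d0 1.94% of all tested genes were called. At an unadjusted p under 0.05 the list held 6 higher and 2 lower in BAT at d3, 2 higher and 4 lower in BAT at d0, 0 higher and 5 lower in vWAT at d0 and 0 higher and 1 lower in vWAT at d3. The feedback inhibitor Nfkbia, induced by NF-kB, was not called in BAT at d3 (log2 fold change 0.12, adjusted p = 0.15). From d0 to d3 12 of 21 fell and 2 rose in BAT siCtrl cells, and 11 of 21 fell and 4 rose in vWAT, with Ptgs2 lowest in both (-4.81 and -5.43). In BAT 14 of 21 called is close to the 65.2% of all tested genes called there, though 35.3% of all tested genes were lower. In vWAT 50.3% of all tested genes were called, 26.3% higher and 23.9% lower. Among 11 JAK-STAT feedback genes 1 rose with siH19 in BAT at d3, Socs2 (log2 fold change 0.59, SE 0.06, adjusted p = 0.0031), which is close to the 8.57% of all tested genes. At d0 in BAT 1 rose, Pim1 (log2 fold change 0.44, SE 0.08, adjusted p = 0.043), where 1.94% of all tested genes were called. In vWAT at d0 Cish fell (log2 fold change -0.53, SE 0.07, adjusted p = 0.024) and Cebpd rose (log2 fold change 0.48, SE 0.07, adjusted p = 0.029), where 1.53% of all tested genes were called. Socs3, a feedback target of gp130 signalling, fell from d0 to d3 in BAT siCtrl cells (log2 fold change -1.15, SE 0.29, adjusted p = 0.0096) and was lower in BAT than in vWAT at d3 (log2 fold change -3.21, SE 0.19, adjusted p = 1.5e-05). Other genes of this list went the other way. At an unadjusted p under 0.05, 3 were higher and 7 lower from d0 to d3 in BAT siCtrl cells. In BAT against vWAT siCtrl cells at d3, 4 were higher and 7 lower. These lists were chosen with earlier results of the same data known, and their counts describe the libraries only.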

How the data were processed

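Polyadenylated RNA was sequenced from 24 libraries, which are directional and paired-end per the labels but single-end per the methods of the study. The deposited FPKM values were made by the authors with TopHat2 (2.0.10), GRCm38, Ensembl genes and Cufflinks, with replicates kept apart, and the authors' tools as listed in the labels also include FastQC (0.10.1), STAR, DESeq2 and R (3.2.2). FPKM holds no read counts, so no counting interval was computed. Depth was compared through the smallest steps between low values. Of the sample columns 0 were left unused.

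Here log2(FPKM + 1) of genes with FPKM 1 or more in at least 3 fitted libraries was fitted with limma (3.58.1, trended empirical Bayes, R 4.3.3), using only the libraries of each comparison. Interactions were fitted in 2 by 2 designs of 12 libraries. Benjamini-Hochberg adjustment ran over all tested genes. A call needed an adjusted p under 0.05 and at least a 1.3-fold change (interactions: adjusted p alone). The fits were tested on simulated data. Samples were grouped by their labels.

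Members and lists were chosen with earlier results of these data known. Named with values in each library were members called in an siH19 comparison and the 10 with the highest mean FPKM. Named for day and depot were the 5 called members with the largest change each way in siCtrl cells. Named from lists were at most 5 called genes each way. Genes named outside this rule (Ccr2, Cxcr2, Nfkbia, Il6st, Osm and neighbours of Ccl9) were chosen after their values were seen. In the chemokine receptor list 1 gene is not reported here. Over all genes, same-numbered libraries did not deviate together (correlations of deviations -0.14 to 0.09), so replicate numbers were not taken as pairs. These correlations do not speak for single members: in vWAT at d0 replicate 1 was lowest in Il6, Ccl2, Lif and Cxcl10 with both siRNAs. Alternatives were a pseudocount of 0.1, no filter, scaling to a common median, 1 fit over 24 libraries, no minimum fold change, a replicate block and leaving out each library.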

Additional observations from a re-analysis of the deposited data

Results flagged for a closer look

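The results below are differences between 2 responses, each tested by an interaction term in limma over 12 libraries, on the log2(FPKM + 1) scale.

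The response to siH19 at d3 differed between BAT and vWAT, in the sense BAT minus vWAT, by 1.31 for Cxcl5, 1.26 for Cxcl14, 1.21 for Ccl7, 1.09 for Ccl2, 1.07 for Cxcl1, 0.76 for Csf1, 0.59 for Clcf1 and -0.69 for Ccl6 (adjusted p = 0.0012 to 0.025). In Cxcl5 and Cxcl14 the siH19 values lay above the siCtrl values in BAT and below them in vWAT. Ccl6 was the reverse, lower in all 3 siH19 libraries in BAT and higher in all 3 in vWAT. The 19 macrophage markers went the same way as a sum. They summed to 174 to 212 FPKM in siCtrl and 103 to 120.4 FPKM in siH19 libraries of BAT. In vWAT the sums were 715 to 773 FPKM and 787 to 895 FPKM. In this interaction 12 macrophage markers were lower and 0 higher at an unadjusted p under 0.05. Their part in the Ccl6 difference was not tested. The calls of Clcf1 and Cxcl1 were each lost in 5 of 12 fits that left out 1 library. For Clcf1 these were the fits without BAT siCtrl replicate 2, BAT siH19 replicate 2, vWAT siCtrl replicate 3 or vWAT siH19 replicate 1 or 2 (adjusted p = 0.051 to 0.061). For Cxcl1 they were those without BAT siH19 replicate 1, vWAT siCtrl replicate 2 or 3 or vWAT siH19 replicate 1 or 2 (adjusted p = 0.052 to 0.062).

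The change from d0 to d3 in siCtrl cells differed between BAT and vWAT most in the negative sense for Cxcl12 (-3.90), Ccl9 (-3.14), Ccl24 (-1.99), Cxcl16 (-1.46) and Csf1 (-1.34). In the positive sense it differed most for Cxcl13 (2.2), Cxcl10 (1.75), Il1rn (1.57), Il6 (1.44) and Ctf1 (1.42). Il6 and Csf1 fell in both depots, Il6 more in vWAT and Csf1 more in BAT, while Cxcl12 fell in BAT and rose in vWAT. Ccl24, an eosinophil attractant, was at 2.91, 2.68 and 2.12 FPKM at d0 and 0.126, 0 and 0.0429 FPKM at d3 in BAT, and at 2.58, 2.30 and 1.62 FPKM and 2.34, 2.74 and 3.08 FPKM in vWAT. The Cxcl10 call was lost with a pseudocount of 0.1 (adjusted p = 0.31). Cxcl10 was already at a mean of 0.878 FPKM over the 6 BAT d0 libraries, so it could fall little there.

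In BAT the response to siH19 differed between d3 and d0, in the sense d3 minus d0, by 1.36 for Il15, 1.35 for Cxcl1, 1.27 for Ccl7, 1.13 for Ccl2, 0.79 for Cxcl5, 0.78 for Cxcl9, 0.74 for Cxcl12, 0.71 for Csf1 and 0.62 for Cxcl14 (adjusted p = 0.00089 to 0.049). Ccl2 and Ccl7 overlapped between siRNA groups at d0 and were higher with siH19 at d3. For Cxcl12 the difference reflects a lower level with siH19 at d0 and overlapping levels at d3. Il15, a lymphocyte growth factor, was at 2.09, 2.89 and 3.16 FPKM in siCtrl and 1.64, 1.22 and 1.29 FPKM in siH19 libraries at d0, and at 1.68, 1.11 and 0.332 FPKM and 1.40, 2.26 and 3.36 FPKM at d3. Its call was lost in 10 of 12 fits that left out 1 library (adjusted p = 0.057 to 0.11), being kept without BAT siCtrl d3 replicate 1 or BAT siH19 d3 replicate 1. It was also lost after scaling (adjusted p = 0.073), with a pseudocount of 0.1 (0.072) and without a filter (0.11). That of Cxcl9 was lost in 9 of 12 (adjusted p = 0.058 to 0.084), being kept without BAT siCtrl d0 replicate 1, BAT siH19 d0 replicate 2 or BAT siH19 d3 replicate 2, and it was lost after scaling (0.062) and without a filter (0.087).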

How the results depend on the processing

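Of 500 values of named members under alternatives other than leaving out a library, 481 kept their call and direction, 19 lost the call and 0 turned direction. Of 735 such values with 1 library left out, 683 were unchanged in call and direction, 51 lost the call and 1 gained it. Of 90 counts of called members 82 stayed within 1.5 times the reported count. The 8 that did not were at BAT d0 (2 with siH19 as reported) 1 with no filter, 4 with 1 fit over all 24 libraries and 0 with the replicate block. At vWAT d0 (1 as reported) they were 0 with no filter, 2 with no minimum fold change, 2 with 1 fit over 24 libraries (without Cxcl13, adjusted p = 0.067) and 0 with the replicate block, and at vWAT d3 (0 as reported) 1 with 1 fit over 24 libraries. The causes were not tested. With the replicate block, 94 of 100 named values kept their call and 6 lost it (Cxcl12 and Ccl9 in BAT at d0, Il6 in BAT at d3, Cxcl13 in vWAT at d0, and Il15 and Cxcl9 in the day by siRNA interaction). With 1 library left out, the counts ranged over 0 to 2 and 6 to 8 for siH19 in BAT at d0 and d3, 0 to 1 and 0 to 0 in vWAT, 18 to 23 and 14 to 17 for d3 against d0 in BAT siCtrl and siH19 cells, and 18 to 25 and 19 to 23 in vWAT. They ranged over 24 to 27 and 16 to 21 for the depots at d0 in siCtrl and siH19 cells, 16 to 21 and 12 to 16 at d3, 6 to 9 for depot by siRNA, 17 to 21 for depot by day and 7 to 10 for day by siRNA. Without a filter Il6 (adjusted p = 0.084) and Cxcl1 (0.088) lost their calls in BAT at d3, Ccl9 (0.094) in BAT at d0, Cxcl13 (0.052) in vWAT at d0, Cxcl1 (0.058) in the depot by siRNA interaction, and Il15 (0.11) and Cxcl9 (0.087) in the day by siRNA interaction. With 3 libraries a group, members near FPKM 1 and changes near 1.3-fold are at the limit of what was detectable.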

Other observations

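Some members held their level where most of the set fell. Ccl25, a thymus and gut chemokine, was between 5.94 and 10.3 FPKM in all 24 libraries, and its log2 fold change from d0 to d3 in siCtrl cells was 0.11 in BAT (95% interval -0.16 to 0.37) and 0.23 in vWAT (-0.05 to 0.51). Il1rn was the most abundant member of the IL-1 family in BAT, with 77.8% of the summed FPKM of Il33, Il1b, Il1rn and Il18 at d0 and 87.9% at d3 in siCtrl cells, while Il33 was the most abundant in vWAT, with 64.8% and 82.5%. Csf2, which drives myeloid growth, was at 1.62, 1.63 and 1.04 FPKM in vWAT siCtrl d0 libraries, listed at 0 in all 6 vWAT d3 libraries and at most 0.160 FPKM in any BAT library. Cxcr5, the receptor of Cxcl13, reached at most 0.289 FPKM in any library. These genes were chosen after their values were seen.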
